A study of Mus musculus with 7 samples.

Results

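The cytosolic ribosomal protein genes encode the protein parts of the small (40S) and large (60S) subunits of the ribosome that translates nuclear mRNAs. They were chosen by name: every symbol made of Rps or Rpl, a number and at most one of the letters a, x, y or l, together with Rplp0, Rplp1, Rplp2 and Rpsa, provided that their TPM averaged 1 or more across 7 libraries. TPM is a transcript abundance corrected for transcript length and scaled to 1000000 in each library. Of 21892 gene symbols listed, 81 matched by name and 79 passed, 31 of the small and 48 of the large subunit. Rpl10l, a paralog of Rpl10, was listed at 0 throughout, and Rpl32l was just below the minimum with a mean of 0.914 TPM. The lowest gene to pass was Rpl39l, with a mean of 6.74 TPM.

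The libraries were made from mouse tumors that bear Egfr exon 19 deletions, a lesion that sensitizes lung cancer to EGFR inhibitors, carried under the skin of C57BL/6 mice and labelled as lung tumor. One group received vehicle and was taken at day 3, and 2 groups received gefitinib, an EGFR kinase inhibitor, until day 3 or day 14. In the other 4 groups, 14 days of gefitinib were followed by 7 days of the VEGFR2 antibody DC101, of 4H2, which the series title places against PD-1, of both antibodies (called the combination here) or of vehicle, and the tumors were taken at day 21. For both vehicle groups the sample titles name vehicle while the treatment field records no treatment; the titles are followed here. Each group had 1 library, how many animals stand behind it is not stated in the labels, and sequencing depth is unknown, so no difference could be set against a replicate spread and no test was made.

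Each ribosome holds one copy of nearly every ribosomal protein, and cells make these proteins in matched amounts. Growing cells devote a large part of their mRNA to them. Many of these mRNAs begin with a cytosine followed by a run of pyrimidines, the 5′ terminal oligopyrimidine (TOP) motif, through which mTOR signalling and the RNA-binding protein LARP1 control their translation and stability. EGFR signals to both mTOR and MYC family factors, which raise ribosome production.

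Promoters were available from RefSeq (GRCm38.p6) for 59 of the 79 genes, with 71 start sites. A pyrimidine run of at least 6 bases that touches positions -5 to +5 was found at 45.1% of these starts, against 20.2% of all 32851 starts in the table. The windows below run from 5 bases before to 20 bases after the listed start on the gene's strand, with the run in capitals. They show starts with and without the run among the genes described below. Of the 59 genes, 31 had the run at a listed start. The search covers only bases near that start, so a gene counted without the run may still have the TOP motif. In Rps12, counted without it, a pyrimidine stretch lies a few bases downstream of the positions searched. Rpl28, Rps6, Rps27, Rplp2, Rpl35, Rpl12 and Rps24 carry the run, Rpl10 and Rpl3l do not, and in Rpl39l the run ends at the last base before the start.
Rpl28 (chr7:4792960-4792984, + strand): tgTCTCTCTTTCCgtctccggccgc
Rps6 (chr4:86857348-86857372, - strand): cgggCCTCTTTTTCgtgacgcctcc
Rps27 (chr3:90213629-90213653, - strand): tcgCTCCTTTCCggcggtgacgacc
Rplp2 (chr7:141447646-141447670, + strand): TCTTCCTTTCgccgccggacgccgc
Rpl35 (chr2:39005112-39005136, - strand): CTTTCCTCTTTCTCTCgaaccaggc
Rpl12 (chr2:32961707-32961731, + strand): gatccgTCTTTTCggctttcggctc
Rps24 (chr14:24490673-24490697, + strand): ggTCCTTCCTTgcgcgttgatatga
Rpl10 (chrX:74270811-74270835, + strand): tggaagataggccgcctatataagg
Rpl39l (chr16:10170223-10170247, + strand): TTTCCggatttccggtggtcgccat
Rpl3l (chr17:24727821-24727845, + strand): gctctgtcatttgacctctggtgcc

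The 250 bases before to 50 bases after each start were also searched on both strands for 4 short motifs. CCGGAAG, bound by ETS factors such as GABPA, was present at 36.6% of the ribosomal protein starts, against 8.86% of all starts and 15.8% of the starts of the genes compared here. AAGATGG, bound by YY1, was present at 15.5%, against 6.34% and 6.62%. GGGCGG, bound by SP1, was at 57.7%, against 35.7% and 59.5%, and the TATA box TATAAA was at 8.45%, against 13.6% and 8.03%. The 150 bases upstream of Rpl41, the most abundant gene of the set, and of Rplp2 hold an ETS and an SP1 match each, in capitals, while those of Rpl3l hold none of the motifs. These matches are letters in a window and do not show binding.
Rpl41 (chr10:128549169-128549318, - strand): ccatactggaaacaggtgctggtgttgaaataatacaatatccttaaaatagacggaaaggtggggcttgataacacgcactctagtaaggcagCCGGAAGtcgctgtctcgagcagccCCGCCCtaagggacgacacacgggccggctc
Rplp2 (chr7:141447501-141447650, + strand): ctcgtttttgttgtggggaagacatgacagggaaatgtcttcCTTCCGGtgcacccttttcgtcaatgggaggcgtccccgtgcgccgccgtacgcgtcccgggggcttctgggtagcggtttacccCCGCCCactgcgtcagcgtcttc
Rpl3l (chr17:24727676-24727825, + strand): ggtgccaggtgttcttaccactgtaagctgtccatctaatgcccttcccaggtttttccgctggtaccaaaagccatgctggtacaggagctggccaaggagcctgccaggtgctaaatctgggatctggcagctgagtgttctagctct

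The libraries differ in the levels of tissue markers, and 2 of them stand apart. The 12 epithelial markers summed to 51.6 TPM in the 4H2 library and 430.4 TPM in the combination library, against 1333.3 to 8294.5 TPM in the other 5, with none listed at 0; Epcam was at 3 and 20.8 TPM in those 2 libraries, against 80.9 to 571.2 TPM. The 15 skeletal muscle markers held 9.50% of all TPM with 4H2, 9.58% with the combination and 2.03% with DC101, against 0.356% in the day 21 vehicle library and 0.0335% to 0.436% in the 3 earlier ones. In a bulk library, fewer cells of a type and less of an RNA per cell cannot be told apart.

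Ribosomal protein mRNAs took their largest share of the transcriptome with vehicle at day 3. Together the 79 genes made up 14.6% of TPM with vehicle at day 3, 9.98% at day 3 and 7.08% at day 14 of gefitinib. At day 21 they held 10.03% with DC101, 7.05% with 4H2 alone and 8.48% with the combination, against 9.87% with vehicle. The vehicle library of day 3 is the highest of the 7, and the day 14 gefitinib and the 4H2 libraries are the lowest. Among the 100 most abundant genes of a library, 46 were ribosomal protein genes with vehicle at day 3, 35 and 31 at days 3 and 14 of gefitinib, and 35, 19 and 25 with DC101, 4H2 and the combination, against 34 with vehicle at day 21. The large subunit held 9.34% and the small subunit 5.29% in the day 3 vehicle library, and 4.42% and 2.66% at day 14 of gefitinib.

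**Figure D1:**
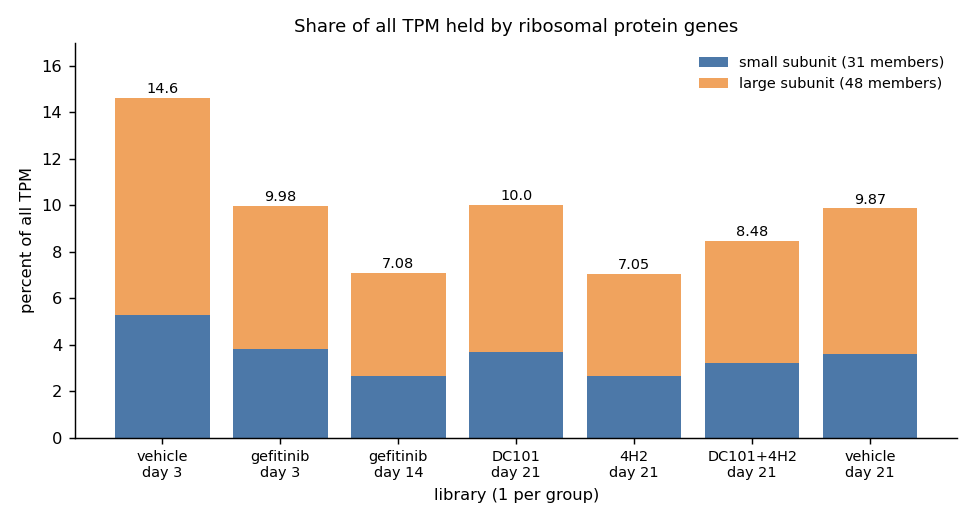
Percent of all TPM held by the 31 small subunit genes (blue) and the 48 large subunit genes (orange) in each library, 1 library per group. The bar is highest for vehicle at day 3 (14.6%) and lowest for 4H2 at day 21 (7.05%) and gefitinib at day 14 (7.08%).

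Levels spanned a wide range within the set, and the order of the genes changed little between libraries. Rpl41, which encodes a very short large subunit protein, averaged 4938.9 TPM, followed by Rps2 (3250.8), Rpl28 (3160.8), Rpl23a (2965.4) and Rpl13 (2646.0). The lowest after Rpl39l were Rps6 (32.8), whose protein is the classical target of S6 kinase, Rps15a (56.7), Rpl3l (68.1) and Rps27l (71.6). The low values of Rps6, Rps15a, Rps20 and Rpl22 are uncertain, and so are differences between libraries in these genes, since the handling of reads shared with processed copies of these genes is not stated. Spearman's rho across the 79 genes lay between 0.908 and 0.989 for the 21 pairs of libraries, which describes the same genes measured repeatedly and is not a test.

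**Figure D2:**
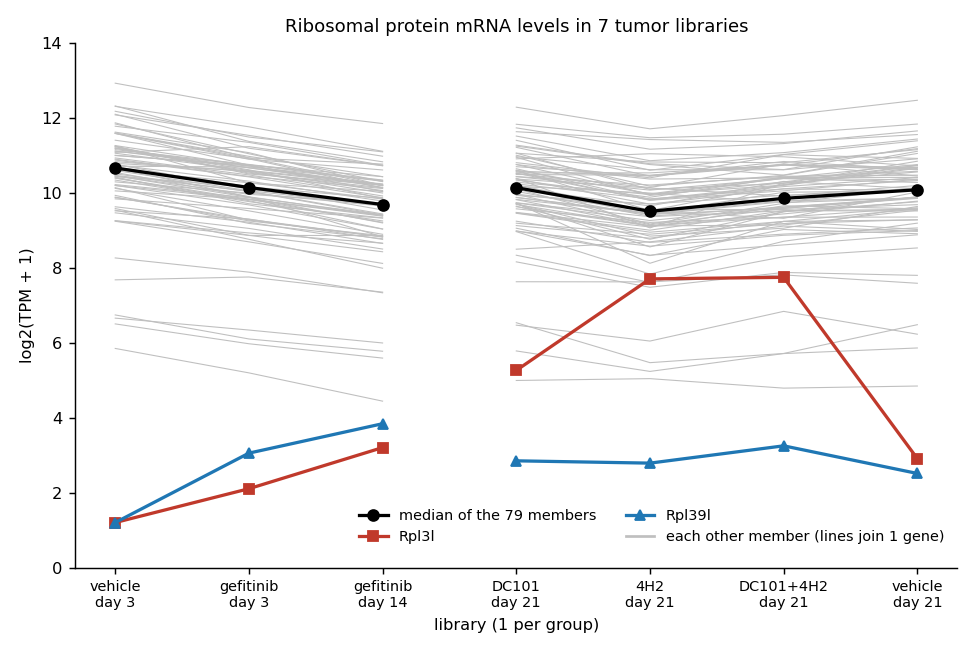
Level of each of the 79 ribosomal protein genes as log2(TPM + 1) in the 7 libraries, with the median in black, Rpl3l in red and Rpl39l in blue. Lines join the values of 1 gene and do not mark a time course among the day 21 groups; most genes shift together, and Rpl3l and Rpl39l do not follow.

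Differences were computed as log2((TPM + 1) / (TPM + 1)) over the 13998 genes with a mean of at least 1 TPM, and a gene was called higher or lower when it lay at least 2-fold apart on this scale. With gefitinib for 3 days, relative to vehicle, the set was lower as a block, at a median of -0.53, while the median of all genes was -0.09. Of the 79 genes, 75 were below and 4 above their vehicle value, where 7472 and 6380 of all 13998 genes were. By the 2-fold rule 1 was higher (Rpl39l), where 20.8% of all genes were, and 0 were lower, where 14.4% were. The shift was narrow: 74 of 79 lay within 0.5 of the set's median, whereas 41.4% of all genes lay that close to theirs. Lists described below were also narrow around their own medians. That close lay 16 of 17 initiation factors, 21 of 24 proteasome genes and 15 of 18 translation genes with TOP mRNAs. For mitochondrial ribosomal protein genes it was 63 of 77, and for ribosome biogenesis genes 28 of 36.

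The stalk proteins, which recruit translation factors to the large subunit, were part of this shift. Rplp0 was at 1897.9 TPM with gefitinib, against 3056.9 with vehicle, and Rplp1 and Rplp2 were at 1703.7 and 1228.5 TPM, against 2032 and 1559.8. Rpl5 and Rpl11, which with 5S rRNA form a particle that restrains MDM2, were at 624.1 and 906.3 TPM, against 934.9 and 1057.2. Rpl3, part of the peptidyl transferase centre, was at 1089.2 TPM, against 1731, and Rpsa, a small subunit protein also known as a laminin receptor, was at 1381.7, against 1900.8. Among the genes furthest below the set's median were Rpl8 (1223.5 against 2426.6 TPM), Rpl13 (2639.5 against 5085.4), Rpl12 (1945.2 against 3721.8) and Rpl35 (2326.6 against 4362.6), none of them 2-fold lower. Rps23, which lines the decoding centre, was at 2395.8 TPM, against 2155.2, and Rps20 at 214.4, against 203.3; Rpl10, which completes the peptidyl transferase centre late in assembly, was at 1645.7, against 1668.4.

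At day 14 of gefitinib, with vehicle at day 3 as the comparison, the set was lower still, at a median of -1.03 with all genes at 0.03. Of the 79 genes, 43 fell by the 2-fold rule, where 12.7% of all genes were lower, and 2 rose (Rpl3l and Rpl39l), where 22.7% were higher. Again the shift was narrow, with 67 of 79 within 0.5 of the set's median, against 39.1% of all genes around theirs. Around their own medians lay 17 of 18 translation genes with TOP mRNAs, 23 of 24 proteasome genes and 14 of 17 initiation factors. For mitochondrial ribosomal protein genes it was 64 of 77, and for ribosome biogenesis genes 27 of 36. The 43 lower genes of the set were 15 of 31 small and 28 of 48 large subunit genes. The set's median lies almost on the 2-fold line, so this count moves easily: it was 37 under a median-of-ratios rescaling and 52 under a rescaling that leaves out the set itself and other abundant genes. No day 14 vehicle group is among these libraries, so gefitinib and days in the animal cannot be told apart.

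Rpl36, a large subunit gene, fell furthest, to 451.3 TPM at day 14, against 1488.1 with vehicle at day 3 (log2 difference -1.72). Rpl12, a protein at the base of the stalk, was at 1164.2 TPM, against 3721.8 (-1.68), Rps7 at 1044.1, against 3063.1 (-1.55), Rps24 at 252.3, against 740.2 (-1.55), and Rpl32 at 1254.8, against 3644 (-1.54). These 5 were the lowest relative to the set. Rps20, Rps23 and Rpl10 were among the least lowered, as at day 3, at 161.8, 1688.2 and 1281.1 TPM, against 203.3, 2155.2 and 1668.4. Their log2 differences were -0.33, -0.35 and -0.38. Both comparisons share the day 3 vehicle library, so this is not a repeat. Between days 3 and 14 of gefitinib these genes were at -0.40, -0.50 and -0.36, where the set's median was -0.47. Rps6 was at 20.7 TPM, against 56.5, and Rpl39, a short protein of the exit tunnel, at 275.9, against 602.7; both fell by the 2-fold rule. Rps27 was at 462.2 TPM, against 606.3.

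Relative to gefitinib at day 3, the day 14 library had a set median of -0.47, with all genes at 0.11. In this pair 1 gene rose (Rpl3l, where 4.93% of all genes were higher) and 1 fell (Rpl36, where 2.73% were lower), and 76 of 79 lay within 0.5 of the set's median, against 77% of all genes around theirs. Rpl3l and Rpl39l, 2 of 79, lay at least 1 from the set's median, against 7.02% of all genes from theirs. The 2 steps of the gefitinib course were therefore of similar size for the set, -0.53 and -0.47.

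Markers of other cell types moved in the same libraries. The 12 epithelial markers had a median difference of -1.65 at day 3 of gefitinib (10 of 12 at least 2-fold lower) and -0.95 at day 14 (5 of 12 lower, 1 higher), and the 18 proliferation genes -1.95 (17 lower) and -2.26 (18 lower), against vehicle at day 3. Macrophage and fibroblast markers were higher, 10 of 10 each at both times: macrophage markers held 1.93% and 2.04% of all TPM at days 3 and 14, against 0.218%, and fibroblast markers 2.48% and 1.29%, against 0.247%. T and B cell markers held 0.0199% and 0.0851%, against 0.00303%. Skeletal muscle markers were 2-fold higher in 15 of 15 at both times, with medians of 2.90 and 3.72. Endothelial markers were higher in 9 and 7 of 10, and adipocyte markers in 6 and 7 of 8. Of all genes, 20.8% and 22.7% were higher and 14.4% and 12.7% lower at days 3 and 14. Any part of a change in cell make-up in the lower ribosomal protein share was not tested. Between days 3 and 14 of gefitinib the epithelial median was 0.71 and the proliferation median -0.19, while the set's was -0.47.

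In the day 21 vehicle library, taken 7 days after gefitinib ended, 76 of 79 genes were above their day 14 value, with a median of 0.44 and all genes at -0.01. Of all 13998 genes compared, 6825 were above theirs. By the 2-fold rule 0 rose, where 7.62% of all genes were higher, and 1, Rpl39l, fell, where 7.89% were lower. Within 0.5 of the set's median lay 76 of 79, against 59.7% of all genes around theirs. All 18 translation genes with TOP mRNAs, 17 initiation factors and 24 proteasome genes lay that close to their own medians. For mitochondrial ribosomal protein genes it was 73 of 77, and for ribosome biogenesis genes 32 of 36. Rpl12 (2310.1 against 1164.2 TPM), Rps24 (468.6 against 252.3), Rpl24 (920.2 against 522.4), Rpl36 (792.3 against 451.3) and Rps7 (1830.1 against 1044.1) had the largest positive departures from the set's median. Of these, Rpl12, Rps24, Rpl36 and Rps7 were among the 5 lowest at day 14, and the 2 comparisons share that library. Rps23, Rplp1 and Rpl10 were near their day 14 level, at 1677.9, 1391.9 and 1357.4 TPM, against 1688.2, 1375.7 and 1281.1. Related lists rose too, with medians of 0.46 for proteasome genes (24 of 24 above) and 0.43 for mitochondrial ribosomal protein genes (73 of 77). Translation genes with TOP mRNAs were at 0.39 (17 of 18), initiation factors at 0.37 (16 of 17) and ribosome biogenesis genes at 0.62 (35 of 36). The epithelial median was 1.58 and the proliferation median 1.57 in this pair. The part of epithelial and proliferation genes in the set's shift was not tested.

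The set did not reach the level of the day 3 vehicle library. Against it, the day 21 vehicle library had a set median of -0.55, with all genes at 0.04, and 77 of 79 genes below. The positive median of all genes means that most of them were not below. Within 0.5 of the set's median lay 77 of 79, against 60.2% of all genes around theirs. At 2-fold, 1 fell (Rps6, 27.7 against 56.5 TPM; 3.11% of all genes were lower) and 2 rose (Rpl3l and Rpl39l; 15.3% of all genes were higher). Past gefitinib and days in the animal cannot be told apart in this pair.

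**Figure D3:**
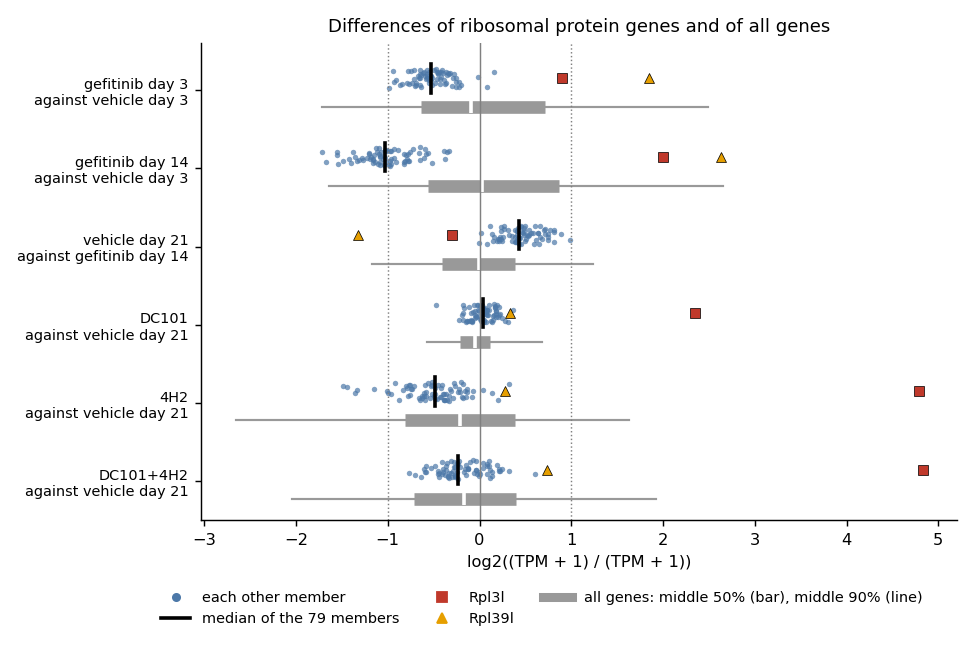
Log2 differences of the 79 ribosomal protein genes (dots, with Rpl3l as red squares, Rpl39l as orange triangles and the set's median as a black bar) above those of all 13998 genes compared (grey: middle 50% and 90% of genes, white tick at the median), for 6 pairs of libraries, with dotted lines at 2-fold. The set lies in a narrow band below 0 at days 3 and 14 of gefitinib (medians -0.53 and -1.03), above 0 after gefitinib (0.44) and near 0 with DC101 (0.04).

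DC101, against vehicle at day 21, came with little difference in the set. The median was 0.04, with all genes at -0.05, and 77 of 79 genes lay within 0.5 of the set's median, against 86.2% of all genes around theirs. Rpl3l alone rose by the 2-fold rule, where 3.12% of all genes were higher, and 0 fell, where 1.11% were lower. It was also the 1 gene at least 1 from the set's median, against 4.13% of all genes from theirs. The lowest were Rps27, a zinc-binding small subunit protein, at 359.1 TPM with DC101, against 499.4 with vehicle, Rpl37 at 497.5, against 581.9, Rpl39 at 321.1, against 367.6, Rpl41 at 4972, against 5649.7, and Rps19 at 834.3, against 947.8. The highest after Rpl3l and beside Rpl39l were Rpl21 (284 against 221 TPM), Rpl30 (1151.3 against 926.8) and Rpl23 (996 against 819.5).

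4H2, against vehicle at day 21, came with a lower and more scattered set. The median was -0.48, with all genes at -0.21, and 73 of 79 genes were below their vehicle value. Most of all genes were below theirs too, as their median was negative. Of the 79 genes, 66 lay within 0.5 of the set's median, against 42.9% of all genes around theirs. At 2-fold, 6 of 79 fell, where 20% of all genes were lower, and 1 rose (Rpl3l), where 10.9% were higher. Among them were Rps29 (533.2 TPM with 4H2 against 1501.2 with vehicle), Rpl37 (226.2 against 581.9), Rps19 (374.6 against 947.8), Rpl8 (734.1 against 1634.4) and Rps27l (43.2 against 88.2). Rps19 is a 40S gene whose human counterpart is mutated in Diamond-Blackfan anemia, Rps29 and Rpl37 encode small zinc-binding proteins, and Rpl8 forms part of the peptidyl transferase centre. Rps27l was just past the line, at a log2 difference of -1.01, and was not 2-fold lower with a pseudocount of 5 (-0.95) or under the rescalings (-0.76 and -0.94).

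Other genes were above their vehicle value in the 4H2 library without reaching 2-fold. Rps23 was at 2101.7 TPM with 4H2, against 1677.9 with vehicle, Rps6 at 31.9, against 27.7, and Rpl30 at 1015.4, against 926.8. Rplp0 was at 1346.1, against 1928.1, and Rpsa at 1178.2, against 1414.6. The difference between the set's median and that of all genes was -0.27 as deposited, -0.25 under median-of-ratios rescaling and -0.27 under the rescaling without muscle and other abundant genes. The set's own median was -0.48, -0.23 and -0.41 under these scalings, and the median of all genes -0.21, 0.02 and -0.14.

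With the combination, against vehicle at day 21, the set had a median of -0.23, close to the median of all genes at -0.17. At 2-fold, 1 rose (Rpl3l, where 11.7% of all genes were higher) and 0 fell, where 17% were lower. Of the 79 genes, 58 were below their vehicle value. Most of all genes were below theirs too, as their median was negative. The set's median was 0.01 under median-of-ratios rescaling, so no direction is given; relative to the median of all genes it was -0.06 as deposited and -0.04 under that rescaling. Lowest were Rps27l (51.4 against 88.2 TPM), Rpl27 (636.3 against 1035.8), Rpl38 (1416.7 against 2200.2), Rps14 (1566.7 against 2389.3) and Rps7 (1215 against 1830.1). Rpl22 was at 113.1 TPM, against 73.8, Rplp1 at 1742.7, against 1391.9, and Rps23 at 1986.1, against 1677.9.

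The combination library was above the 4H2 library in 69 of 79 genes, with a set median of 0.29 and all genes at 0.06. Most of all genes were above too, as their median was positive. At 2-fold, 2 rose, among them Rps29 (1222.7 TPM with the combination against 533.2 with 4H2), where 4.94% of all genes were higher, and 0 fell, where 0.464% were lower. Within 0.5 of the set's median lay 70 of 79, against 83.9% of all genes around theirs, and 0 of 79 lay at least 1 away, against 5.02%. Against DC101 alone, the combination had a set median of -0.25, with 1 gene higher, Rpl3l, where 11.1% of all genes were, and 0 lower, where 14.3% were. The median-of-ratios factors, by which TPM is divided, were 1.04 for DC101 and 0.905 for the combination. That rescaling thus raises the set's median in this pair, and no direction is given. With 1 library per group, whether the antibodies act on the set in a way that differs from the sum of both was not tested.

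Both antibody groups that contained 4H2 had few epithelial transcripts, and their proliferation genes were lower too. Against vehicle at day 21, the epithelial median was -6.48 with 4H2 and -4.03 with the combination (12 of 12 lower each), and the proliferation median was -2.77 (18 of 18 lower) and -1.79 (17 of 18 lower). The skeletal muscle median was 4.83 and 4.89 (15 of 15 higher each). Any part of a change in tissue in the ribosomal protein differences was not tested. The share was also taken without the muscle markers and the 20 most abundant genes, which were left out of both the set and the total. The remaining genes of the set then held 8.34% with 4H2 and 9.80% with the combination, against 10.4% with vehicle. These values are not comparable with the shares of the full set given above.

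Other genes of translation shifted with the set in some comparisons and not in others. The 7 ribosomal protein genes that the naming rule misses (among them Rps3a1, Fau, Rack1, Rpl36al, Rpl22l1 and Rpl7l1) had medians of -0.63 and -0.82 at days 3 and 14 of gefitinib, against vehicle at day 3, with 0 and 2 of 7 lower by 2-fold, where 14.4% and 12.7% of all genes were lower. Fau, a ubiquitin-like fusion with a small subunit protein, was at 1770.9 and 1478.5 TPM, against 1627.4. Rps3a1, a small subunit gene, was at 1030.2 and 901.4 TPM, against 1594.8.

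The 18 translation genes with known TOP mRNAs, mostly elongation factors and initiation factor 3 subunits, had medians of -0.52 and -0.80, with 1 and 5 of 18 lower by 2-fold, where 14.4% and 12.7% of all genes were lower. Eef1a1, which delivers aminoacyl-tRNA, was at 7745.7 and 6108.4 TPM at days 3 and 14 of gefitinib, against 10547.1. Hnrnpa1, an RNA-binding protein, was at 285.8 and 255.4 TPM, against 684.2, and fell at both times. Eef1b2, Eef1g, Eif3l and Npm1 fell at day 14, at 269.3, 660.8, 144.1 and 300.7 TPM, against 555.4, 1323.3, 332.8 and 736.3. Tpt1, another abundant TOP mRNA, was at 5269 and 2860.9 TPM, against 4588.3.

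The machinery that builds ribosomes had a different course. The 36 ribosome biogenesis genes had a median of -0.86 at day 3 of gefitinib (14 of 36 lower) and -0.72 at day 14 (10 lower), against vehicle at day 3, where 14.4% and 12.7% of all genes were lower. Gar1, Nop10 and Nhp2, core proteins of H/ACA particles, were at 21.8, 80.8 and 86.1 TPM at day 3 and 20, 78 and 84.1 at day 14, against 81.2, 235.6 and 219.8. Between days 3 and 14 this list had a median of 0.13 and the 17 initiation factors 0.08, with none of either list 2-fold apart, while the ribosomal protein genes were at -0.47 and the TOP genes at -0.31. The day 21 vehicle library, against vehicle at day 3, was at -0.10 for biogenesis, 0.00 for initiation factors and 0.11 for 24 proteasome genes, against -0.55 for the ribosomal protein genes and -0.40 for the TOP genes. The 77 mitochondrial ribosomal protein genes were at -0.52 and -0.58 at days 3 and 14 of gefitinib, -0.06 between them, and -0.20 in the day 21 vehicle library against vehicle at day 3. At days 3 and 14 of gefitinib, against vehicle at day 3, initiation factors were at -0.45 and -0.35 and proteasome genes at -0.47 and -0.34. At day 3 of gefitinib 15 of 17 initiation factors and 22 of 24 proteasome genes were below vehicle, where 7472 of all 13998 genes were. The set was thus not alone in that shift.

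With 4H2, against vehicle at day 21, biogenesis genes had a median of -0.89 (14 of 36 lower), initiation factors -0.51 (4 of 17 lower), proteasome genes -0.41 (2 of 24 lower) and mitochondrial ribosomal protein genes -0.19 (1 of 77 lower, 1 higher). Of all genes, 20% were lower with 4H2 and 17% with the combination, so with 4H2 the initiation factor count is near that share and the proteasome and mitochondrial counts are below it. With the combination these medians were -0.62 (11 lower), -0.32 (2 lower), -0.40 (0 lower) and -0.08 (0 lower, 1 higher). With DC101 they lay between 0.00 and 0.08. The TOP genes had a median of -0.38 with 4H2 against vehicle at day 21 (2 of 18 lower, 1 higher). The 7 ribosomal protein genes under other names were at -0.82 in that pair (1 lower), and the set at -0.48. Of all genes, 10.9% were higher in it. Among regulators of ribosome production, Mycn was at 244.9 TPM with vehicle at day 3, 8.1 and 15 at days 3 and 14 of gefitinib, and 132.7 with DC101, 0.5 with 4H2 alone and 13.3 with the combination, against 135.9 with vehicle at day 21. Myc was at 42.6, 68.6 and 67 TPM in the same 3 early libraries, and at 81.7, 35.7 and 37.5 with the 3 antibody treatments, against 100.6. Larp1 was between 125.6 and 190.1 TPM in all 7. Eif4ebp1, a translation repressor that mTOR inactivates, was at 250.6 TPM with vehicle at day 3, 176.2 and 130.2 at days 3 and 14 of gefitinib.

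To separate the common shift from single genes, each gene's mean over the 7 libraries and each library's median shift were removed on the log2 scale. For 69 of 79 genes the largest departure left in any library was below 0.5, for 8 it was between 0.5 and 1, and for 2, Rpl3l and Rpl39l, it was at least 1. The same 2 genes remained when the 4H2 and combination libraries were left out, with largest departures of 2.32 and 2.01. Among the other 77 genes the standard deviation of the departures across genes was 0.260 in the 4H2 library, 0.197 in the day 3 vehicle library and 0.114 to 0.185 in the other 5. Rps29 (-0.83) and Rps19 (-0.69) had low departures in the 4H2 library, and in the combination library both were near 0, at 0.07 and -0.05. With vehicle at day 3, Rps20 departed by -0.60 and Rps23 by -0.52, and Rpl22 departed by 0.59 in the combination library; the levels of Rps20 and Rpl22 carry the doubt about processed copies given above.

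**Figure D4:**
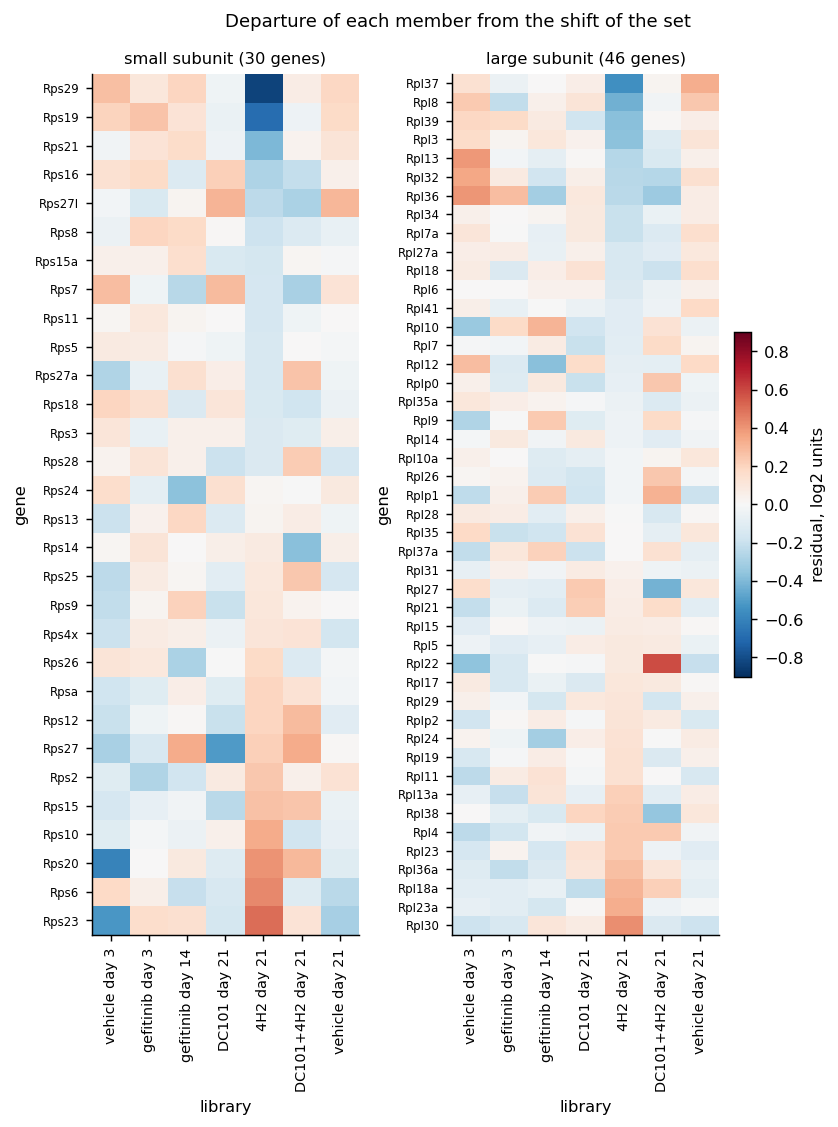
Departure of 76 ribosomal protein genes, Rpl3l and Rpl39l not among them, from their own mean and from the common shift of each library (log2 units, red above and blue below), with genes of the small subunit left and of the large subunit right, ordered by the 4H2 library. The strongest blue cells are Rps29 and Rps19 with 4H2 (-0.83 and -0.69).

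Subunits, protein length groups and genes with or without a pyrimidine run near a listed start had similar medians in the gefitinib comparisons. Small and large subunit medians were -0.45 and -0.55 at day 3 of gefitinib, -0.97 and -1.04 at day 14, 0.40 and 0.47 after gefitinib, and -0.46 and -0.48 with 4H2. The 19 genes with up to 120 residues had medians of -0.55 and -1.03 at days 3 and 14 of gefitinib, and the 58 longer ones -0.53 and -1.03, against vehicle at day 3 and without Rpl3l and Rpl39l. The 30 genes with a pyrimidine run at a start had medians of -0.55 and -1.03, and the 27 with a promoter but no run -0.47 and -1.02. With the combination, against vehicle at day 21, these were -0.27 with the run and -0.04 without it, and with the combination against DC101 -0.35 and -0.05. With 4H2 against vehicle they were -0.48 and -0.46. No spread between samples is available for these differences.

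Rpl3l is the paralog of Rpl3 that replaces it in ribosomes of mature skeletal and heart muscle; the coding sequences are 74.8% identical over 1202 aligned bases. Rpl3l (chromosome 17, 24727826 to 24736143) was at 1.3 TPM with vehicle at day 3, and 3.3 and 8.2 at days 3 and 14 of gefitinib. At day 21 it was at 37.3 TPM with DC101, 207 with 4H2 alone and 213 with the combination, against 6.5 with vehicle. The 3 antibody libraries are the 3 highest of the 7. The log2 differences were 2.35, 4.79 and 4.83 against vehicle at day 21, and Rpl3 itself was at 1097.1, 572.9 and 839.5 TPM, against 1118.4. Rpl3l thus made up 3.29%, 26.5% and 20.2% of the summed TPM of both paralogs, against 0.578%.

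Skeletal muscle genes moved with Rpl3l in every library. Per 1000 TPM of the 15 muscle markers, Rpl3l was at 3.89 TPM with vehicle at day 3, where its level is near the lower end of the scale, and at 1.31 and 1.88 at days 3 and 14 of gefitinib. It was at 1.84 with DC101, 2.18 with 4H2 alone and 2.22 with the combination, against 1.82 with vehicle at day 21. While Rpl3l itself spanned 1.3 to 213 TPM, this ratio stayed between 1.31 and 3.89. How much of the Rpl3l signal comes from muscle in the sample was not tested. Among the markers, the skeletal actin gene Acta1 was at 5308.5, 26090.2 and 24233.6 TPM in the 3 antibody libraries, against 1200.7.

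**Figure D5:**
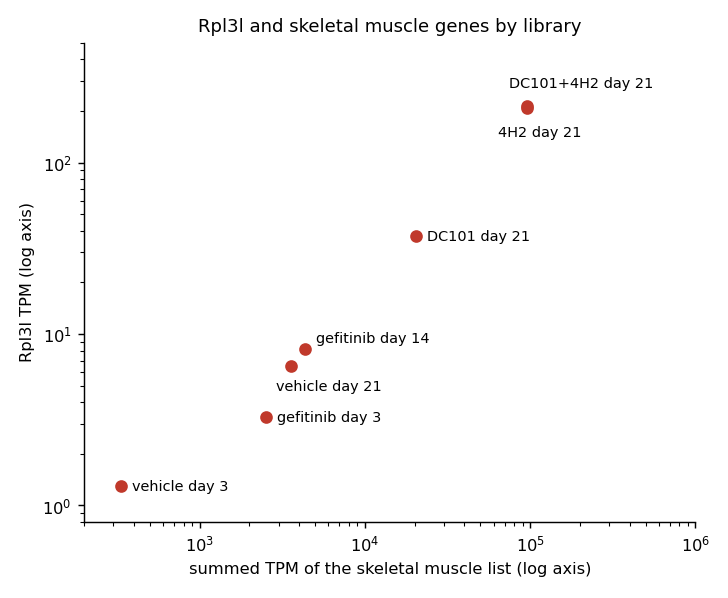
Rpl3l TPM against the summed TPM of 15 skeletal muscle markers in each of the 7 libraries, both on log axes. Both are lowest with vehicle at day 3 (Rpl3l at 1.3 TPM) and highest with 4H2 and the combination (207 and 213 TPM), where the 2 points overlap.

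Rpl39l, a paralog of Rpl39 best known from testis, went against the set under gefitinib. It was at 1.3 TPM with vehicle at day 3, 7.3 and 13.3 TPM at days 3 and 14 of gefitinib, and at 6.2, 5.9 and 8.5 with DC101, 4H2 and the combination, against 4.7 with vehicle at day 21. The log2 differences from vehicle at day 3 were 1.85 and 2.64, while Rpl39 was at 411.4 and 275.9 TPM, against 602.7. Both paralogs encode 51 residues, and Rpl39l made up 1.74% and 4.599% of their summed TPM at days 3 and 14, against 0.215%. Its difference at day 3 was 0.97 with a pseudocount of 5, under the 2-fold line, and its coding sequence is 85.0% identical to that of Rpl39; how reads shared by the pair were counted is not stated.

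Among the other paralogs, Rpl22l1 lay far below the set with 4H2. Rps27l, a p53-induced paralog of Rps27, was at 105.8, 67.5 and 53.6 TPM with vehicle at day 3 and at days 3 and 14 of gefitinib, and at 91.5, 43.2 and 51.4 with DC101, 4H2 and the combination, against 88.2 with vehicle at day 21. It made up 20.3%, 9.50% and 8.53% of the Rps27 pair in the 3 antibody libraries, against 15.01%. Rpl22l1, a paralog of Rpl22 outside the naming rule, was at 68.9, 37.4 and 20.1 TPM in the 3 early libraries and made up 40.9%, 31.9% and 24.3% of its pair. With 4H2 and the combination it made up 15.9% and 17.2%, against 34.3% with vehicle at day 21, and its log2 difference with 4H2 was -1.57, where the set's median was -0.48. The shares of this pair carry the doubt about the level of Rpl22 given above. Rpl36al, a paralog of Rpl36a, stayed between 39.7% and 56.5% of its pair, and Rpl7l1 between 3.50% and 6.52%. Rps4l was not analysed here.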

How the data were processed

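RNA of frozen tumors was depleted of rRNA and made into directional libraries, per the labels' protocols; GRCm38.p6 is the build named, per the submitters' processing notes. Not given in the sources used here: aligner and counter. TPM values deposited by the authors are rounded to 1 decimal for 21892 symbols. TPM keeps no read counts, so depth and counting error are unknown; all 13 mitochondrially encoded protein genes are listed at 0, so a 0 is given only as listed. Groups follow the sample titles.

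With 1 library per group, differences are log2((TPM + 1) / (TPM + 1)) over genes with a mean of at least 1 TPM, called at 2-fold, in 6 main and 4 secondary comparisons; several share a vehicle library. Coding lengths come from GENCODE vM21, promoters from RefSeq. The genes and lists were chosen with earlier results of these data known. Named are the 5 highest and 5 lowest departures per main comparison, the 5 highest and lowest means, outlying genes (at least 1 on the log2 scale), a fixed set of core genes and paralogs, and up to 6 genes of each related list; any gene beyond these was chosen after its values were seen. Some of the genes counted are not reported here by name. Alternatives were pseudocounts of 0.1 and 5, other mean minimums, 2 rescalings, the set without paralogs, the mean instead of the median, and other definitions of the TPM share. Python 3.11.15, pandas 2.3.3 and numpy 2.4.6 were used. The arithmetic of differences and counts was checked on noise-free values with known fold changes, which tests neither noise nor scaling.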

Additional observations from a re-analysis of the deposited data

How the results depend on the processing

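No paired analysis was possible because each group has 1 library. Rescaling by the median of ratios (7340 genes) moved the set's median to 0.00708 with the combination and -0.23 with 4H2 (-0.48 as deposited) against vehicle, and to -0.995 at day 14 of gefitinib against vehicle, where the mean of the set was -0.93. Without the 5 paralogs, 3 of which passed the minimum, 0 genes were higher in all comparisons that had any, 0 lower after gefitinib, and 0 outlying except 1 with 4H2. At day 3 of gefitinib a pseudocount of 0.1 gave 2 genes higher and a pseudocount of 5 gave 0 higher and 1 outlying; rescaling without the set, histone, hemoglobin, muscle and the 20 most abundant genes gave 3 lower. A pseudocount of 5 left 0 lower after gefitinib, and a pseudocount of 0.1 gave 2 outlying with the combination. No filter, which adds the 2 genes below the minimum, gave 1 lower and 2 outlying with the combination and 4 outlying at day 14. For these counts and medians the cause was not tested. Leaving out the 4H2 and combination libraries, chosen after seeing the data, gave 2 outlying genes. The other 207 values of sets and counts kept their direction and stayed within 1.5 times of a count. For single genes, 590 values counted as unchanged: they kept their call and stayed within 1.5-fold, or changed sign with a log2 shift of at most 0.1. The call was lost in 5 (Rpl39l at day 3 and after gefitinib with a pseudocount of 5, and Rps27l with 4H2) and gained in 3, and 14 values moved. Among those 14 are Rpl10, Rpl11, Rpl5, Rps6, Rpsa and Rpl39 with the combination and Rpl11 and Rplp2 with 4H2, which turned above vehicle under the median of ratios. Depth is unknown, so precision at low TPM is unknown too.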
